A study of Mus musculus with 6 samples.

Results

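The genes described are 10 genes of the TGF-beta (transforming growth factor beta) pathway. They are the ligands *Tgfb1*, *Tgfb2* and *Tgfb3*, the latency protein gene *Ltbp1*, the receptors *Tgfbr1*, *Tgfbr2* and *Tgfbr3*, the signal carriers *Smad3* and *Smad7*, and the target gene *Tgfbi*. They were selected by gene symbol, and all 10 were found among the 18152 genes of the expression table. RNA came from the inner enamel epithelium (IEE) of the mandibular first molar (MM1) of mice at E18.5 on the C57BL/6J background, taken by laser capture microdissection. The IEE is the epithelial sheet that folds over the dental papilla, forms the cusps and later gives rise to ameloblasts, the cells that make enamel. There were 3 libraries from *Kdf1* fl/fl mice, whose *Kdf1* alleles carry loxP sites and no Cre (the control group, labelled WT), and 3 in which *K14-Cre;Kdf1* fl/fl mice were used (the cKO group). Both groups carry the floxed alleles. Cre is driven by the keratin 14 promoter, which is active in epithelium in general, so the deletion was not limited to the tooth. The comparison asks how these genes differed when *Kdf1*, a regulator of keratinocyte differentiation, was lost from the epithelium. Whether a library came from 1 embryo or several is not given in the sources used here.

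TGF-beta ligands are secreted in a latent form, bound to their own propeptide and often to a latent TGF-beta binding protein such as the product of *Ltbp1*, and must be released before they can signal. The active ligand joins the type II receptor (*Tgfbr2*), which phosphorylates the type I receptor (*Tgfbr1*), and this in turn phosphorylates SMAD3 and its relative SMAD2. *Tgfbr3* encodes betaglycan, a co-receptor that presents ligand, and *Smad7* encodes an inhibitor that the pathway itself induces. In many epithelia TGF-beta restrains proliferation and can favour a mesenchymal state, and in the tooth germ it takes part in the exchange between epithelium and mesenchyme.

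The label check on the deleted gene came out as the labels state. *Kdf1* was at 52.5, 44.3 and 52.7 CPM (read counts scaled to a common library size and corrected for library composition) in the control libraries. In the cKO libraries it was at 0, 0.0629 and 0 CPM, from 1 count in all, which is at least 251-fold lower when 3 counts in a library are taken as the floor. Library totals lay between 14713918 and 16675133 counts. The tissue label was compared with marker genes. Summed CPM over 16 dental epithelium markers was 16700 to 32300 in the control libraries and 7390 to 12500 in the cKO libraries. Epithelial transcripts were thus abundant in both groups, but their sum was lower in every cKO library. Of the 16 markers, 9 lay lower in every cKO library than in any control library, and 0 lay higher in every one. Over all genes tested, the groups did not overlap for 30.7%, in either direction, and 14.5% were higher in every cKO library. Transcripts of other cell types were also present. The cKO library of replicate 1 had the highest sum of any library for endothelium (1130 CPM, against 338 to 420 CPM in the control group), for pericytes and smooth muscle (1430 against 450 to 510 CPM), for macrophages (354 against 53.6 to 127 CPM) and for neutrophils (81.8 against 3.88 to 6.15 CPM).

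None of the 10 genes differed between the genotypes by the criterion used here, a log2 fold change of 1 or more in size with a Benjamini-Hochberg adjusted p of at most 0.05 in edgeR's quasi-likelihood test, and 0.432% of the 14131 genes tested did. DESeq2 also called 0 of the 10, where 6.94% of all genes were called. With the replicate number as a block, edgeR called 1 of the 10, *Tgfbi*, where 6.09% of all genes were called. The labels do not say what a shared replicate number means, and its use as a block was inferred from these same counts. At an unadjusted p of at most 0.05, edgeR gave 3 of the 10 (*Ltbp1*, *Tgfbr1* and *Tgfbi*) against 24.5% of all genes, and DESeq2 gave 4 against 26.0%. On the log2 scale 6 genes were higher and 4 were lower in the cKO group, with a median log2 fold change of 0.22, against 0.00 over all genes tested. The 3 cKO libraries and the 3 control libraries did not overlap in CPM for 3 of the 10 genes (*Ltbp1*, *Tgfbr1* and *Smad3*), and 30.7% of all genes had such groups. In TPM 2 of the 10 did (*Ltbp1* and *Tgfbr1*), against 28.1% of all genes. All 10 genes passed the filter on low counts. These tissue samples are bulk RNA, so fewer cells of a type and less RNA per cell cannot be told apart.

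**Figure D1:**
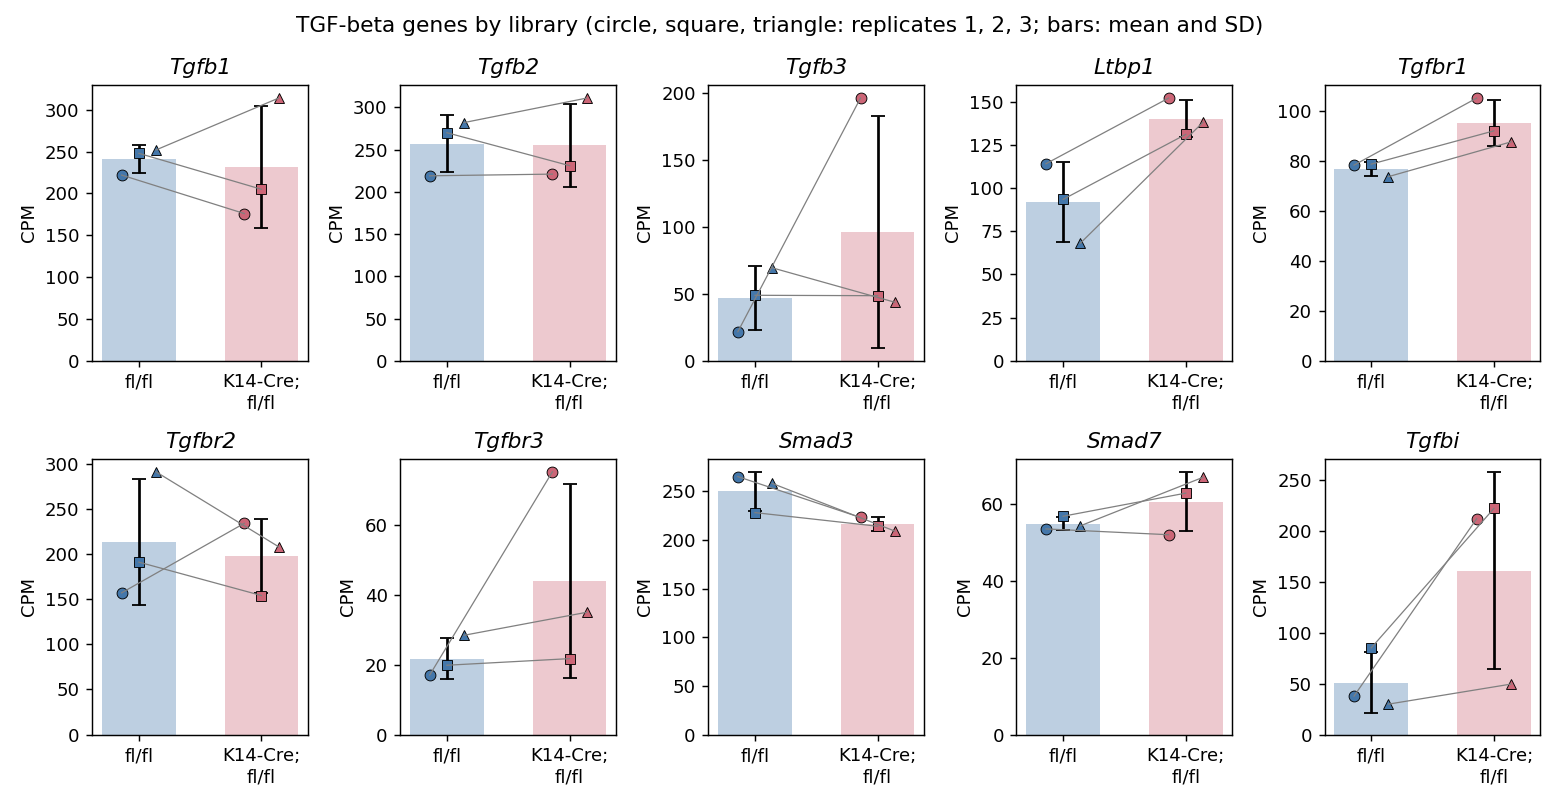
Each panel plots the level of 1 gene in CPM (y axis, from 0) in the control (*Kdf1* fl/fl) and cKO (*K14-Cre;Kdf1* fl/fl) groups. Bars are means with SD (n = 3), the circle, square and triangle are replicates 1, 2 and 3, and grey lines join libraries of the same replicate number. The groups are apart for *Ltbp1*, *Tgfbr1* and *Smad3*, while a single cKO library stands far above all others for *Tgfb3* and *Tgfbr3*.

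Promoter sequence was examined for the genes that RefSeq lists (GRCm38.p6), giving 9 promoters of 7 of the genes. *Tgfb3*, *Tgfbr3* and *Smad7* were not among them. The 6-base sequence CAGACA (on either strand, where it reads TGTCTG) contains the short element to which SMAD3 is known to bind. It was found in 3 of the 9 promoters, 1 each of *Ltbp1*, *Tgfbr1* and *Tgfb2*, and in 21.0% of 32851 RefSeq promoters of the same length. The longer palindrome GTCTAGAC was in 0 of the 9 and in 0.213% of all promoters. *Ltbp1* and *Tgfbr1* were the members whose cKO libraries all lay above the control libraries, and *Tgfb2* hardly differed. *Ltbp1* and *Tgfbr1* were also the only genes with 2 windows each, so more of their sequence was searched for a match. The 3 windows that hold the element are shown. Windows without it, those of *Smad3* and *Tgfb1* among them, are not. Each window shown is the run of 250 bases before a start site, written along the gene's strand, with the element in capitals.
Ltbp1 (second listed start, chr17:75178531-75178780, plus strand): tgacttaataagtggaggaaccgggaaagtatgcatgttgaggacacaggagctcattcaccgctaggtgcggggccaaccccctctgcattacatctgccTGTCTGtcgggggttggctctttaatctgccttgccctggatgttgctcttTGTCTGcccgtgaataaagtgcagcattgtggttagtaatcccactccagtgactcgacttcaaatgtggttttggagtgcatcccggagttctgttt
Tgfbr1 (second listed start, chr4:47385966-47386215, plus strand): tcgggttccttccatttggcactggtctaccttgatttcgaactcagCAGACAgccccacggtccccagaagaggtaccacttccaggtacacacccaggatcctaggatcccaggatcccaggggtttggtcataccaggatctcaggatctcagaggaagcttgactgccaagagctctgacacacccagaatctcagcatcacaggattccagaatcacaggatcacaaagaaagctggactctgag
Tgfb2 (chr1:186705990-186706239, minus strand): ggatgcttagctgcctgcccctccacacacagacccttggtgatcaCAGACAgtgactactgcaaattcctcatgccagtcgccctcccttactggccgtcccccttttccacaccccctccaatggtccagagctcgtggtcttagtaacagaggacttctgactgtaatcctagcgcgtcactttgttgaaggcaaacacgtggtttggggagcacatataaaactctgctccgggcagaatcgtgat
The *Ltbp1* window holds 2 copies of the element, at positions -149 and -98 from the start, and lies in an intron of the longer *Ltbp1* transcript in the GENCODE annotation. The *Tgfbr1* window holds 1 copy at -203 and is likewise intronic to the longer transcript. In the *Tgfb2* window the copy is at -204, and an exon of *Gm29491* runs there on the opposite strand. The windows at the first listed starts of *Ltbp1* and *Tgfbr1* had no copy. The gene-level counts do not tell which start was used, and a match is a description of letters, not a site of binding.

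Among the ligands, *Tgfb1*, the isoform found most widely across tissues, was expressed at 222, 248 and 252 CPM in the control libraries and at 176, 205 and 314 CPM in the cKO libraries. The cKO values lay on both sides of the control values, and the means were 241 ± 16.4 and 232 ± 73.1 CPM (SD, n = 3). Its log2 fold change was -0.06 with a 95% interval of -0.57 to 0.46 (adjusted p = 0.898, edgeR).

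*Tgfb2*, an isoform with roles in organ morphogenesis, was at 219, 270 and 282 CPM in the control libraries and at 221, 231 and 311 CPM in the cKO libraries. These ranges were close to each other (257 ± 33.5 and 255 ± 49.4 CPM, SD, n = 3). The log2 fold change was -0.01 with an interval of -0.42 to 0.39 (adjusted p = 0.973, edgeR), so that a change to double the level or more lies outside the interval. For both of these ligands the sign of the difference turned under some alternatives, and no direction is given.

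*Tgfb3*, the isoform best known for fusion of the palate epithelium, behaved differently among the libraries. It was at 21.7, 48.9 and 69.4 CPM in the control libraries and at 196, 48.6 and 43.7 CPM in the cKO libraries. The cKO library of replicate 1 stood far above every other library, and the other two cKO libraries lay inside the control range. The means were 46.7 ± 23.9 and 96.0 ± 86.4 CPM (SD, n = 3), and the fitted log2 fold change of 1.04 had a standard error of 0.66 and an interval of -0.52 to 2.6 (adjusted p = 0.370, edgeR). Without the cKO library of replicate 1 it was 0.00. By replicate number the log2 differences were 3.17, -0.01 and -0.67, so the numbers did not share a direction. Within a group the highest library was 3.19 times the lowest in the control group and 4.48 times in the cKO group, against 1.14 and 1.79 times for *Tgfb1*.

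Levels of different genes can be compared only per transcript length, for which TPM (the length-corrected abundance of a gene's transcripts) was used. In TPM, *Tgfb1* supplied most of the summed ligand transcripts in 5 of the 6 libraries, with shares of 69.3%, 64.8% and 62.4% in the control libraries and 46.1%, 63.2% and 68.0% in the cKO libraries. The share of *Tgfb2* ranged only from 22.5% to 27.6%. For *Tgfb3* the share was 4.15%, 7.82% and 10.5% in the control libraries and 31.4%, 9.17% and 5.79% in the cKO libraries. In the cKO library of replicate 1 *Tgfb3* thus took a larger share than *Tgfb2*, which it did in no other library. Summed over the 3 ligands, TPM was 331 ± 38.5 in the control group and 363 ± 56.3 in the cKO group (SD, n = 3).

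**Figure D2:**
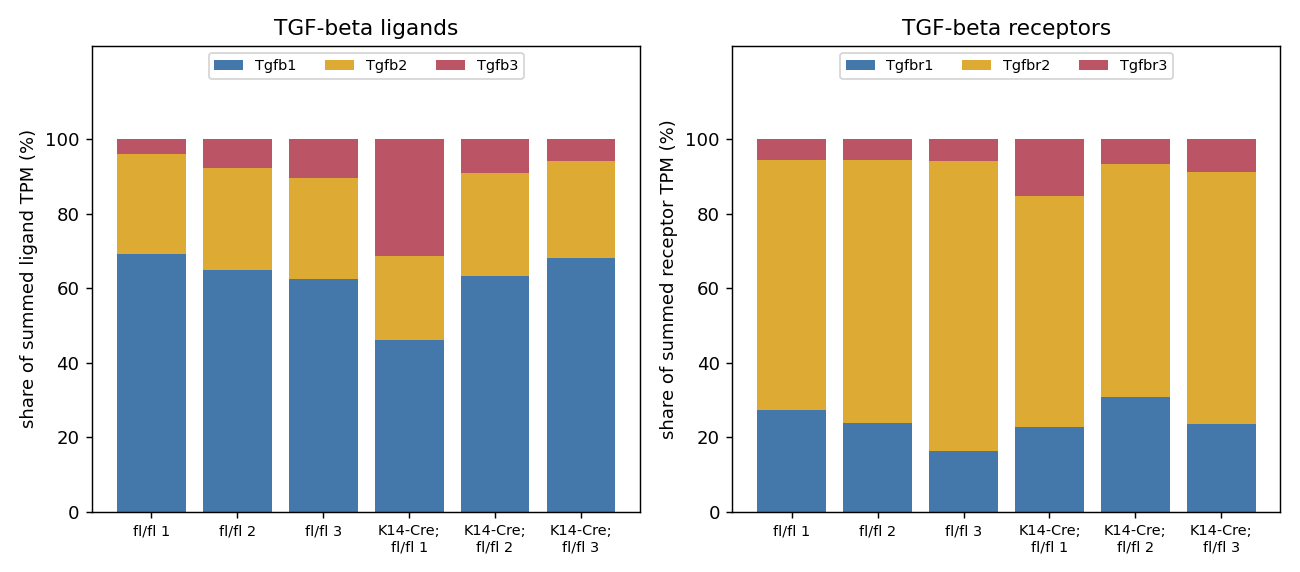
Stacked bars give the share of each ligand (left) and each receptor (right) in the summed TPM of its family, in percent (y axis), for the 6 libraries (x axis, fl/fl are the controls). *Tgfb3* reaches 31.4% of ligand TPM in cKO replicate 1 and at most 10.5% elsewhere, and *Tgfbr3* holds 5.61% to 5.86% of receptor TPM in the controls and 6.83% to 15.4% in the cKO libraries.

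*Ltbp1*, whose product tethers latent ligand to the extracellular matrix, was higher in every cKO library than in any control library. Its levels were 114, 93.4 and 68.0 CPM in the control libraries and 152, 131 and 138 CPM in the cKO libraries (91.9 ± 23.2 and 140 ± 10.6 CPM, SD, n = 3). In TPM the groups were also apart, at 27.4 ± 7.56 and 45.2 ± 5.64 (SD, n = 3). The log2 fold change was 0.61 with a standard error of 0.19 and an interval of 0.16 to 1.06, which did not pass adjustment over all genes in the unblocked fit (unadjusted p = 0.0145, adjusted p = 0.122, edgeR). DESeq2 gave 0.63 with an adjusted p of 0.0363, and edgeR with the replicate block gave 0.64 with an adjusted p of 0.0463. An adjusted p of at most 0.05, whatever the fold, was reached by 0.545%, 12.6% and 9.87% of all genes in these 3 fits. Every replicate number showed the same direction, with log2 differences of 0.41, 0.49 and 1.02, and leaving out 1 library at a time kept the value between 0.44 and 0.80. In every fit *Ltbp1* stayed under the minimum fold change of the criterion.

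*Tgfbr1*, the type I receptor and kinase, was at 78.2, 78.6 and 73.6 CPM in the control libraries and at 105, 91.9 and 87.5 CPM in the cKO libraries. All cKO libraries lay above all control libraries, by a small margin and with little spread (76.8 ± 2.80 and 94.9 ± 9.20 CPM, SD, n = 3). The same held in TPM, at 24.1 ± 2.27 and 31.2 ± 5.03 (SD, n = 3). The log2 fold change of 0.30 (standard error 0.11, interval 0.04 to 0.57) did not pass adjustment (unadjusted p = 0.0293, adjusted p = 0.159, edgeR). It lay between 0.24 and 0.38 when 1 library was left out.

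*Tgfbr2*, the ligand-binding type II receptor, was the most abundant of the 3 receptors in every library. It was at 157, 191 and 291 CPM in the control libraries and at 234, 154 and 208 CPM in the cKO libraries, and the groups overlapped throughout (213 ± 69.8 and 198 ± 40.8 CPM, SD, n = 3). The log2 fold change was -0.10 with an interval of -0.71 to 0.50 (adjusted p = 0.830, edgeR), and its sign turned when control replicate 3 or cKO replicate 2 was left out.

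*Tgfbr3*, the co-receptor betaglycan, was the least abundant of the 10 genes in TPM in both groups. Its levels were 17.1, 19.9 and 28.5 CPM in the control libraries and 75.4, 21.8 and 35.1 CPM in the cKO libraries. As for *Tgfb3*, the cKO library of replicate 1 was the highest, and the cKO library of replicate 2 lay inside the control range. The means were 21.8 ± 5.94 and 44.1 ± 27.9 CPM (SD, n = 3), with a log2 fold change of 1.01, a standard error of 0.45 and an interval of -0.04 to 2.07 (unadjusted p = 0.0569, adjusted p = 0.216, edgeR). By replicate number the log2 differences were 2.14, 0.13 and 0.30, all in one direction, and without the cKO library of replicate 1 the fitted value was 0.40.

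Set against the other receptors in the same library, *Tgfbr3* held a narrow share of the receptor TPM in the control group, at 5.61%, 5.65% and 5.86%. In the cKO libraries its share was 15.4%, 6.83% and 8.77%, above the control values in all 3. In cKO replicate 2 the level of *Tgfbr3* itself, 6.58 TPM, lay inside the control range of 5.06 to 7.82 TPM. The share of *Tgfbr2* was 67.1%, 70.6% and 77.9% in the control libraries and 61.9%, 62.5% and 67.8% in the cKO libraries. These shares were not tested. Summed over the 3 receptors, TPM was 111 ± 21.7 in the control group and 124 ± 33.5 in the cKO group (SD, n = 3).

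*Smad3*, which carries the signal from the receptors to the genome, was slightly lower in the cKO group. It was at 265, 228 and 258 CPM in the control libraries and at 223, 214 and 209 CPM in the cKO libraries. Every cKO value lay under every control value, although by TPM the groups overlapped, at 94.9, 85.9 and 87.7 in the control libraries and 90.0, 81.4 and 80.1 in the cKO libraries. The means were 250 ± 19.9 and 216 ± 7.15 CPM (SD, n = 3), and the log2 fold change of -0.22 (standard error 0.11, interval -0.48 to 0.05) did not pass the test (unadjusted p = 0.092, adjusted p = 0.274, edgeR). Among the 10 genes it was the only one lower in the cKO library of every replicate number.

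*Smad7*, the inhibitor that TGF-beta signalling itself induces, varied least in the control group, at 53.4, 56.7 and 54.2 CPM. In the cKO libraries it was at 51.9, 62.7 and 66.8 CPM, so that 1 value lay under and 2 above all control values. The means were 54.8 ± 1.73 and 60.5 ± 7.73 CPM (SD, n = 3), and the log2 fold change was 0.14 with an interval of -0.15 to 0.44 (adjusted p = 0.518, edgeR). The interval leaves out a doubling of *Smad7* and equally a fall to 0.5 times its level.

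*Tgfbi*, a secreted matrix protein named for its induction by TGF-beta, had the largest log2 fold change of the 10 genes. Its levels were 37.8, 85.1 and 29.9 CPM in the control libraries and 212, 222 and 49.6 CPM in the cKO libraries. The cKO libraries of replicates 1 and 2 were far above all control libraries, while that of replicate 3 lay inside the control range. The means were 50.9 ± 29.9 and 161 ± 97.0 CPM (SD, n = 3). Without the block, the log2 fold change of 1.66 (standard error 0.62, interval 0.21 to 3.12) did not pass adjustment (unadjusted p = 0.0301, adjusted p = 0.161, edgeR), and neither did the DESeq2 test (adjusted p = 0.130). Within replicate numbers the direction was the same in all 3, with log2 differences of 2.49, 1.39 and 0.73. With the replicate number as a block the log2 fold change was 1.54 with a standard error of 0.33 (adjusted p = 0.0446, edgeR), and *Tgfbi* then passed the criterion. The value lay between 1.39 and 2.25 when 1 library was left out of the unblocked fit, with adjusted p values of 0.0553 to 0.423.

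**Figure D3:**
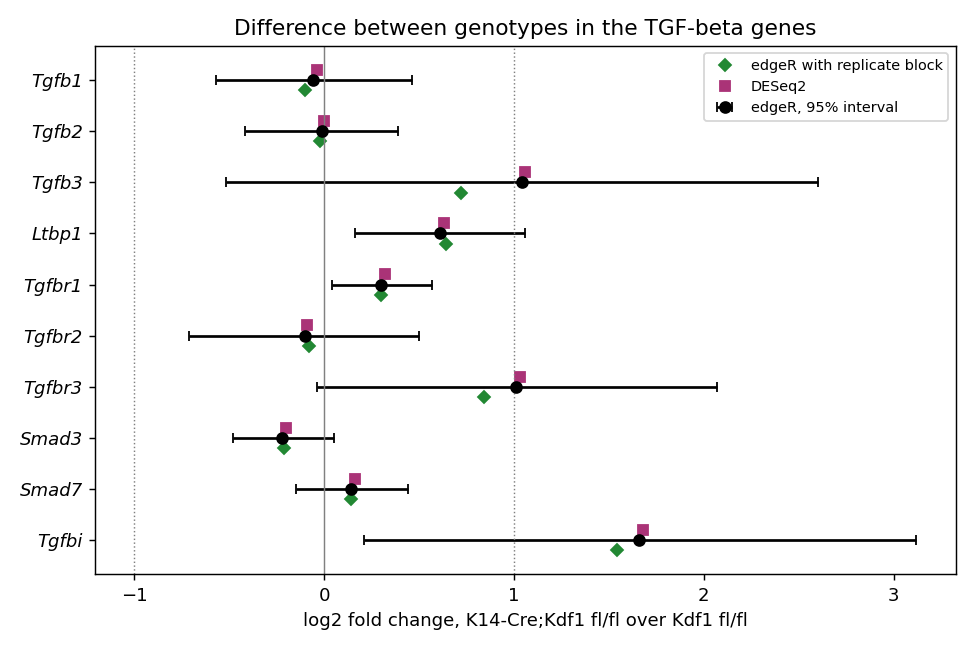
Log2 fold change of each gene, cKO over control (x axis), from edgeR with its 95% interval (black), from edgeR with the replicate block (green) and from DESeq2 (purple). Dotted lines mark the minimum fold change of 1 on the log2 scale. *Tgfb3*, *Tgfbr3* and *Tgfbi* have the highest values and the widest intervals, and the intervals of *Ltbp1*, *Tgfbr1* and *Tgfbi* lie above 0.

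**Figure D4:**
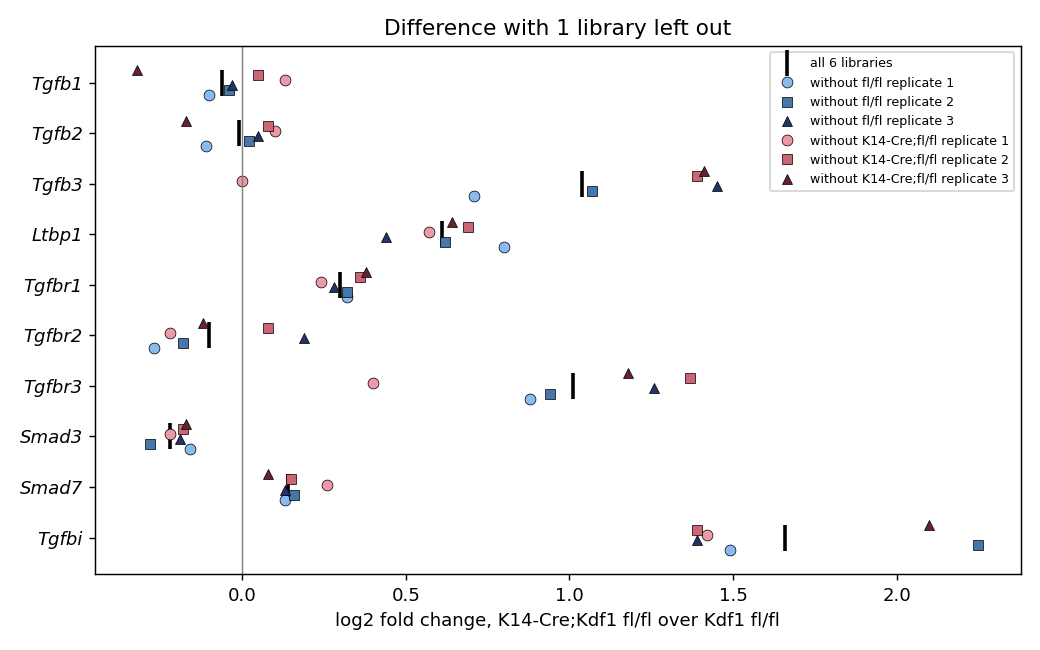
Log2 fold change of each gene, cKO over control (x axis), from all 6 libraries (black bar) and with each library left out in turn (points). *Tgfb3* falls from 1.04 to 0.00 and *Tgfbr3* from 1.01 to 0.40 without cKO replicate 1, while *Ltbp1* and *Tgfbr1* stay between 0.44 and 0.80 and between 0.24 and 0.38.

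The order of the levels in TPM placed *Tgfb1* first in both groups, at 216 ± 18.6 in the control group and 214 ± 54.4 in the cKO group (SD, n = 3). In the control group it was followed by *Tgfb2*, *Smad3*, *Tgfbr2*, *Tgfbi*, *Ltbp1*, *Tgfb3*, *Tgfbr1*, *Smad7* and *Tgfbr3*. Neighbours in this order overlapped between libraries, except *Tgfb1* with *Tgfb2* (89.6 ± 11.7 TPM) and *Smad7* (23.6 ± 2.40 TPM) with *Tgfbr3* (6.37 ± 1.39 TPM). In the cKO group *Tgfbi* came second, at 120 ± 74.7 TPM against 36.5 ± 23.5 TPM in the control group. *Tgfb3* moved above *Ltbp1*, and the rest kept their order, with *Tgfb1* and *Tgfbi*, *Ltbp1* and *Tgfbr1*, and *Smad7* and *Tgfbr3* as the neighbours that did not overlap.

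Likeness of pattern was measured as the mean absolute difference of log2 CPM, after centring each gene on its mean, over the 6 libraries. Among the 10 genes, *Tgfb1* and *Tgfb2* were the most alike, at 0.10, and *Tgfb1* and *Tgfbi* the least, at 1.19. For the 3 genes whose groups did not overlap in CPM, the most similar of the 11597 genes with a mean of at least 5 CPM were *Fsd1l* (0.05) and *Sostdc1* (0.08) for *Ltbp1*, *Mcl1* (0.02) and *4931406C07Rik* (0.03) for *Tgfbr1*, and *Kctd3* (0.02) and *Dpy19l1* (0.03) for *Smad3*. The median over the genes compared was 0.39, 0.26 and 0.20 for these 3. *Sostdc1* encodes a secreted inhibitor of BMP and WNT signalling expressed in dental epithelium.

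A further 119 genes of the pathway were examined, of which 106 passed the filter on low counts. Their lists were chosen with earlier results of these data known. None of the 106 passed the criterion in edgeR (41 had an unadjusted p of at most 0.05, 31 higher and 10 lower, or 38.7%, against 24.5% of all genes). DESeq2 called 21, or 19.8%, all of them higher in the cKO group, where 5.05% of all genes were called higher. The blocked edgeR fit called 18, or 17.0%, again all higher, where 4.16% of all genes were, and 17 genes were called in both. Without the cKO library of replicate 1, DESeq2 called 13 of the 107 that then passed the filter, or 12.1%, where 4.01% of all genes were called, and of the 13 there were 12 higher and 1 lower (*Nedd4l*). The median log2 fold change was 0.23.

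The 21 genes that DESeq2 called were 12 target genes, 5 genes of ligand binding and release, 3 of the activin group and 1 co-receptor. Of 41 known TGF-beta target genes, DESeq2 called 12 and the blocked fit 10, with a median log2 fold change of 0.58. These were 29.3% and 24.4% of the list, all higher, where 5.05% and 4.16% of all genes were called higher. *Ccn2*, a matricellular protein and a standard readout of the pathway, was at 74.7, 47.5 and 36.9 CPM in the control libraries and 190, 138 and 157 CPM in the cKO libraries (log2 fold change 1.61, standard error 0.27, adjusted p = 0.0556 in edgeR and 1.28e-06 in DESeq2). *Igfbp7*, which binds insulin-like growth factors, was at 43.9, 51.4 and 50.4 CPM against 154, 112 and 86.3 CPM (log2 fold change 1.27, standard error 0.21, adjusted p = 0.0556 in edgeR). *Mmp13*, a collagenase, was at 21.7, 22.6 and 4.11 CPM against 3030, 242 and 708 CPM (log2 fold change 6.36, standard error 1.17, adjusted p = 0.0637 in edgeR and 0.0224 with the block). For these genes the groups did not overlap. Without the cKO library of replicate 1 the log2 fold change of *Mmp13* was 4.90. The target list was compiled from general knowledge of the pathway, but with earlier results of these data known, and its genes also answer to other signals.

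Of 19 genes that hold or release latent ligand, 5 were called by DESeq2 and 5 by the blocked fit, all higher. Each is 26.3% of the list, where 5.05% and 4.16% of all genes were called higher. *Thbs1*, thrombospondin, which can activate latent TGF-beta, was at 23.6, 19.0 and 11.4 CPM in the control libraries and 257, 109 and 59.0 CPM in the cKO libraries (log2 fold change 2.98, standard error 0.56, adjusted p = 0.0637 in edgeR and 0.00504 with the block). *Mmp9*, a gelatinase, was at 46.1, 33.6 and 15.6 CPM against 761, 148 and 104 CPM. Its log2 fold change was 3.41 (standard error 0.84, adjusted p = 0.0841) in edgeR and 2.97 (standard error 0.38, adjusted p = 0.0141) with the block. *Lrrc32*, which encodes GARP, an anchor of latent ligand on the cell surface, was at 6.59, 5.03 and 5.56 CPM against 40.4, 11.6 and 12.1 CPM. Its log2 fold change was 1.90 (standard error 0.51, adjusted p = 0.0942) in edgeR and 1.66 (standard error 0.34, adjusted p = 0.0344) with the block. In all 3 of these genes the cKO library of replicate 1 was the highest, and without it the log2 fold changes in edgeR were 2.24 for *Thbs1*, 2.00 for *Mmp9* and 1.06 for *Lrrc32*.

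Activin is the relative of TGF-beta that signals through the same SMAD2 and SMAD3. Of 7 genes of activin, inhibin and follistatin, 3 were called higher by DESeq2 and by the blocked fit. That is 42.9% of a short list, where 5.05% and 4.16% of all genes were called higher. *Inhba*, the activin A subunit, was at 4.33, 3.39 and 3.28 CPM in the control libraries and 78.3, 16.2 and 16.6 CPM in the cKO libraries. Its log2 fold change was 3.33 (standard error 0.68, adjusted p = 0.0674) in edgeR and 2.95 (standard error 0.43, adjusted p = 0.0186) with the block. *Fst*, follistatin, which binds and blocks activin, was at 11.9, 12.3 and 6.25 CPM against 31.1, 47.1 and 28.2 CPM. Its log2 fold change was 1.81 (standard error 0.32, adjusted p = 0.0582) in edgeR and 1.83 (standard error 0.20, adjusted p = 0.00695) with the block. Without the cKO library of replicate 1 the log2 fold change of *Inhba* was 2.18. *Fstl1*, a follistatin-like secreted protein, had a log2 fold change of 1.20 in edgeR (adjusted p = 0.105) and 1.22 in DESeq2 (adjusted p = 0.00634). Without that library it was 0.94 in DESeq2 (adjusted p = 0.0718), and the call was lost. The ligand subunit and its antagonist were thus both higher in every cKO library than in any control library.

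Among 12 other type I, type II and co-receptors, DESeq2 called 1 (*Nrp1*, a co-receptor, log2 fold change 1.14, adjusted p = 0.135 in edgeR and 0.0302 in DESeq2) and the blocked fit 0. The DESeq2 call is 8.33% of the list, where 5.05% of all genes were called higher. Without the cKO library of replicate 1 the DESeq2 call of *Nrp1* was lost (log2 fold change 0.58, adjusted p = 0.169). *Acvrl1* and *Acvr2a*, receptors of the same family, had log2 fold changes of 1.02 and 0.35 (adjusted p = 0.147 and 0.165 in edgeR). Among 27 other Smads, partners and inhibitors both called 0, with 4 higher and 3 lower at an unadjusted p of at most 0.05 in edgeR (25.9%, against 24.5% of all genes). *Crebbp*, a co-activator of SMAD proteins, had the lowest p of this list, at 116, 112 and 99.4 CPM in the control libraries and 145, 139 and 140 CPM in the cKO libraries (log2 fold change 0.37, standard error 0.10, adjusted p = 0.102 in edgeR). *Nedd4l*, a ubiquitin ligase acting on SMAD proteins and receptors, was at 63.2, 51.4 and 81.0 CPM against 48.7, 31.6 and 31.4 CPM (log2 fold change -0.81, standard error 0.24, adjusted p = 0.109 in edgeR), and without the cKO library of replicate 1 it passed the criterion in DESeq2 (log2 fold change -1.04, adjusted p = 0.00125). *Smurf2*, another such ligase, was at 71.1, 68.6 and 64.7 CPM against 104, 79.4 and 87.3 CPM (log2 fold change 0.40, standard error 0.13, adjusted p = 0.128 in edgeR).

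Transcripts of other cell types differed between the libraries along with several of these genes. Higher group means in the cKO group were found for 10 of 10 endothelium markers, 8 of 9 pericyte and smooth muscle markers, 13 of 13 macrophage markers and 9 of 9 neutrophil markers. Their summed levels in the cKO libraries were 388 to 1130, 476 to 1430, 108 to 354 and 31.4 to 81.8 CPM. A group mean can be raised by 1 library. Fewer markers, 4, 4, 5 and 8 of these lists, lay higher in every cKO library than in any control library, and 0 lay lower. Over all genes tested, 14.5% were higher in this way. For 15 dental papilla and odontoblast markers (leaving out *Col1a1*, which dominates the sum) 13 means were higher, with sums of 1880 to 5460 CPM in the control libraries and 3250 to 6550 CPM in the cKO libraries. Of the 15, 8 lay higher in every cKO library than in any control library, and 1 lay lower. With *Col1a1* the sums were 3950 to 18400 and 10300 to 11200 CPM, and the highest was control replicate 2. The sums for the other lists named here, and the papilla sum without *Col1a1*, were highest in the cKO library of replicate 1, as were *Tgfb3*, *Tgfbr3*, *Thbs1*, *Mmp9*, *Lrrc32* and *Inhba*. The same held for *Ltbp1*, *Tgfbr1*, *Ccn2*, *Igfbp7*, *Mmp13*, *Nrp1*, *Acvrl1*, *Fstl1*, *Crebbp* and *Smurf2*. In contrast, *Tgfb1*, *Tgfb2*, *Smad7* and *Acvr2a* were highest in cKO replicate 3, and *Tgfbi* and *Fst* in cKO replicate 2. *Tgfbr2*, *Smad3* and *Nedd4l* were highest in a control library. Endothelium, pericytes and macrophages had sums within the control range in the cKO library of replicate 3, at 388, 476 and 108 CPM. So did the papilla list without *Col1a1*, at 3250 CPM, while the neutrophil sum of that library, 31.4 CPM, was above the control range. Of the 10 genes, only *Tgfbi*, *Tgfb3*, *Tgfbr1* and *Smad3* had their lowest cKO value there.

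For erythroid, osteoblast and neural markers the highest sum was in a control library. The sums were 831 to 1300 and 799 to 1280 CPM for erythroid markers (*Hbb-y* at or under the floor of 3 counts). For osteoblast markers they were 976 to 1310 and 721 to 884 CPM without *Col1a1*, and 3040 to 14300 and 5220 to 7920 CPM with it. For neural and Schwann cell markers they were 266 to 478 and 152 to 245 CPM. Of these 7 neural and Schwann cell markers, however, 4 had higher group means in the cKO group. Of the 7, 3 lay higher in every cKO library than in any control library, and 2 lay lower. Skeletal muscle markers were low, at 2.12 to 5.53 and 3.36 to 11 CPM, with 6 of 7 means higher in the cKO group and the highest sum again in cKO replicate 1. None of the 10 genes is on a marker list, while 4 of the 119 further genes are (*Acta2*, *Col1a1*, *Col3a1* and *Vim*). The part of other cell types in the differences reported here was not tested.

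**Figure D5:**
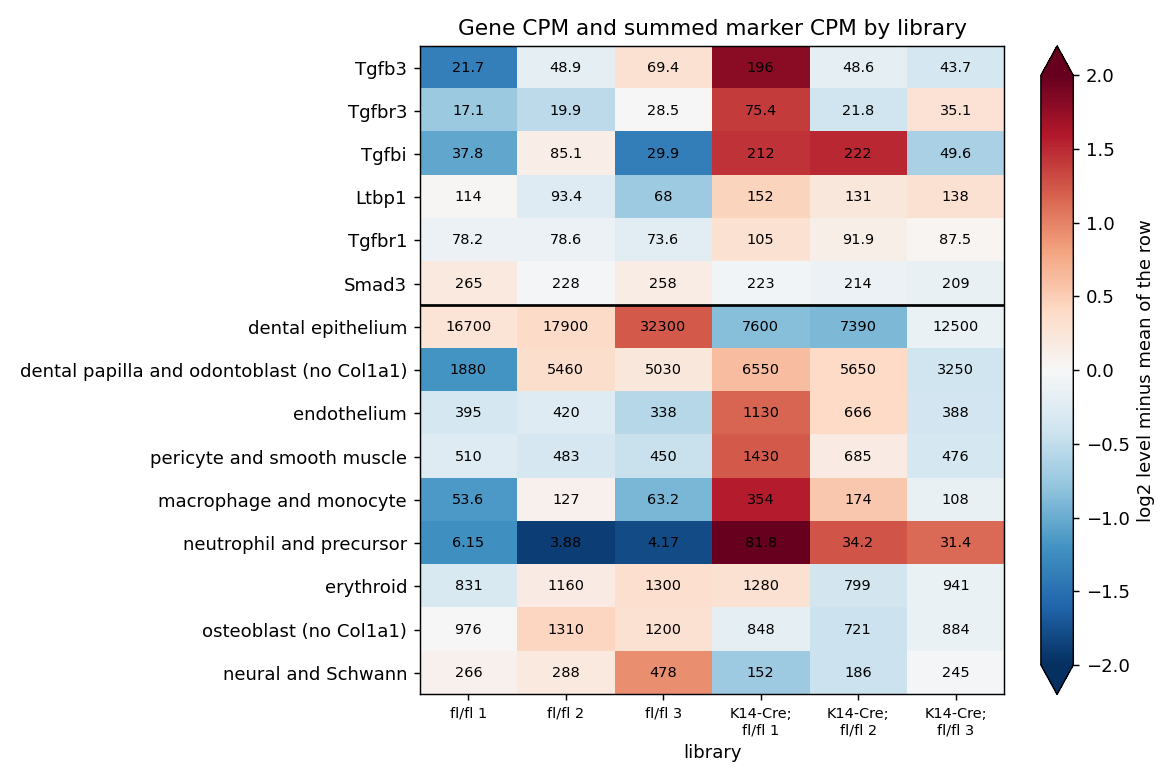
Printed values are CPM of 6 of the genes (above the line) and summed CPM of each marker list (below it) in the 6 libraries (x axis, fl/fl are the controls), and colours show the log2 level minus the mean of the row, with the colour scale ending at -2 and 2. *Tgfb3* (196 CPM) and *Tgfbr3* (75.4 CPM) peak in cKO replicate 1, as do the sums for endothelium (1130 CPM), pericytes (1430 CPM), macrophages (354 CPM) and neutrophils (81.8 CPM). *Ltbp1* (152 CPM) and *Tgfbr1* (105 CPM) are also highest there, while *Tgfbi* and *Smad3* are not.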

How the data were processed

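RNA of laser-captured IEE was sequenced in 3 libraries per genotype, and groups and replicate numbers were taken from the labels, which call the replicates biological. The submitters' processing notes name BWA 0.7.12, Picard 2.6.0 and StringTie, without their roles. The genome build, annotation, strand setting and the study's test are not given in the sources used here, so no coordinates are given for the counted genes. The promoter windows are RefSeq's own, on GRCm38.p6. In the table deposited by the authors, estimated counts are unnormalised reads per gene, of which 10.9% to 11.5% per library are not whole. TPM values in the deposited table are the authors' own, scaled by transcript length to an equal total per library. FPKM columns were not used.

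Estimated counts were rounded and analysed in R 4.3.3 with edgeR 4.0.16 (filterByExpr, TMM factors of 0.95 to 1.03, robust quasi-likelihood F-test, two-sided, Benjamini-Hochberg adjustment over 14131 genes). The criterion (log2 fold change of 1 or more in size, adjusted p no higher than 0.05) follows the study's threshold. DESeq2 1.42.0, limma 3.58.1 and the settings listed in the closing section were alternatives. CPM used TMM-scaled library sizes, and standard errors and intervals came from the F statistic. A count of 0 allows up to 3 counts, or 0.198 CPM in the smallest library. Such limits cover counting error only.

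The members and gene lists were chosen with earlier results of these data known. Besides the 10 members, the text names the 3 genes with the lowest p of each pathway list and the 2 genes (mean of at least 5 CPM) most like each member whose groups do not overlap. Other genes were chosen after their values were seen.

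Deviations from the group means correlated between libraries of the same replicate number, at 0.133, 0.344 and 0.515. For each control library the best match among the cKO libraries was that of its own number, so the numbers were taken to pair the libraries. This pairing comes from the data, not the labels, and the blocked fits test the same counts from which it was taken. Between libraries of a group, chi-square per degree of freedom was 36.2 to 78, so none was a repeat deposit. On simulated counts with the cKO and control library sizes (14003 genes), the edgeR test recovered 57% of genes changed by 1 on the log2 scale and 93% of those changed by 2. In the simulation a gene's spread followed from its mean level and was not its own. These shares therefore do not give the power of the test for the genes described here. In the real data *Thbs1*, with a log2 fold change of 2.98 and a standard error of 0.56, did not pass in edgeR.

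In the GENCODE annotation, exons of *Gm29491* overlap *Tgfb2*, and those of *Gm37804* and *Gm48008* overlap *Tgfb3*, on the opposite strand, and *Gm43422* overlaps *Tgfbr3* on its own strand. Reads of such pairs cannot be told apart here.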

Additional observations from a re-analysis of the deposited data

How the results depend on the processing

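Of 180 refits of the 10 genes' log2 fold changes, 159 kept their direction and their side of the criterion, 20 turned sign and 1 passed it, *Tgfbi* with the replicate block. The block changed no other call among the 10 genes by the criterion. The count of the 10 genes past the criterion was 0 in the unblocked edgeR fit, 1 with the replicate block and 1 at an unadjusted p with the minimum fold change, and it was 0 with DESeq2, limma-voom, limma on TPM and when each library was left out in turn. The cause of the added call with the block was not tested. For the further pathway genes the count of 0 became 21 with DESeq2, 18 with the replicate block, 13 with DESeq2 without cKO replicate 1 (chosen after seeing the data), 1 with no filter on low counts and 25 at an unadjusted p with the minimum fold change. Leaving out 1 library gave 0 to 10, with 10 reached without cKO replicate 3. Over all genes, 61 passed the criterion in edgeR, 980 in DESeq2, 573 in DESeq2 without cKO replicate 1, 860 with the block, 6 with limma-voom, 31 with limma on log2(TPM + 1), 7 with DESeq2 size factors in edgeR, 9 with library size alone, 103 with no filter, 6 with at least 10 counts in every library and 1 to 465 with 1 library left out, the highest again without cKO replicate 3.

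The log2 fold changes that turned sign were these. *Tgfb1* went to 0.00 with library size alone, 0.13 and 0.05 without cKO replicates 1 and 2, and 0.11 in DESeq2 without cKO replicate 1. *Tgfb2* went to 0.00 in DESeq2, with DESeq2 size factors and with the stricter filter, 0.03 in limma on TPM at either pseudocount (1 or 0.1), 0.02 with upper quartile scaling and 0.05 with library size alone. It went to 0.02, 0.05, 0.10 and 0.08 without control replicates 2 and 3 and cKO replicates 1 and 2, and 0.08 in DESeq2 without cKO replicate 1. *Tgfb3* fell to 0.00 without cKO replicate 1 and to -0.01 in DESeq2 without it. *Tgfbr2* went to 0.19 without control replicate 3 and 0.08 without cKO replicate 2. Of the marker genes checked, *Epcam* (-0.05) went to 0.03 in limma on TPM, 0.01 with library size alone, 0.19, 0.02 and 0.03 without control replicate 1 and cKO replicates 1 and 2, and 0.01 in DESeq2 without cKO replicate 1, and *Ptprc* (0.73) went to -0.03 in both fits without cKO replicate 1. The other marker genes checked kept their sign. *Krt14* (-1.50) and *Cdh1* (-1.50) were lower in every cKO library than in any control library. *Pecam1* (1.11) was higher in every one, and *Vim* (0.66) overlapped. *Cdh1* passed the criterion in the unblocked edgeR fit of all libraries (adjusted p = 0.0498), in DESeq2 and with the block. It did not pass in limma-voom (adjusted p = 0.0613). Nor did it pass in edgeR with DESeq2 size factors (adjusted p = 0.0518), library size alone (0.0533) or the stricter filter (0.0515). When 1 library was left out of the unblocked edgeR fit, it passed only without cKO replicate 3 (adjusted p = 0.0476). With 1 library left out, the ranges were -0.32 to 0.13 for *Tgfb1*, -0.17 to 0.10 for *Tgfb2*, 0.00 to 1.45 for *Tgfb3*, -0.27 to 0.19 for *Tgfbr2*, -0.21 to 0.19 for *Epcam* and -0.03 to 1.45 for *Ptprc*. With 3 libraries per group, intervals for *Tgfb3*, *Tgfbr3* and *Tgfbi* span more than a doubling, so their size is not fixed by these data.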

Other observations

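The 3 genes with the highest fold changes, chosen after their values were seen, had different companions by likeness of pattern over the 6 libraries. For *Tgfb3* the most similar gene was *Thsd4* (mean absolute log2 difference 0.26, against a median of 0.74 over genes), at 24.6, 57.2 and 45.0 CPM in the control libraries and 199, 45.2 and 60.8 CPM in the cKO libraries. *Thsd4* encodes a matrix protein that binds fibrillin. For *Tgfbr3* it was *Gpr146* (0.15, against a median of 0.61), with 14.4 CPM in cKO replicate 1 and 3.64 to 6.06 CPM in the control libraries. For *Tgfbi* the closest was *Dclk2* (0.13, against a median of 1.06), and the third was *Adgra2*, an adhesion receptor known for its part in blood vessel growth into the brain (0.16), at 29.8, 53.3 and 22.1 CPM in the control libraries and 164, 124 and 36.5 CPM in the cKO libraries. *Adgra2* and *Tgfbi* were thus high in cKO replicates 1 and 2, and *Thsd4* and *Tgfb3* in cKO replicate 1. None of these genes passed adjustment in edgeR.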
